A study of Mus musculus with 6 samples.

Results

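The 6 genes followed here encode proteins that set how long inflammatory mRNAs survive, and they were measured in cultured mouse hepatocytes exposed to tumour necrosis factor alpha (TNFα): Zfp36, Zfp36l1, Zfp36l2, Zc3h12a, Elavl1 and Hnrnpd. Every probe that the platform annotation assigned to these 6 symbols was taken, which gave 6 of the 19057 named genes and 11 of the 45281 probes on the array: 3 for Zfp36l1, 2 each for Zc3h12a, Elavl1 and Hnrnpd, and 1 each for Zfp36 and Zfp36l2. The study used 6 Illumina BeadChip arrays, 2 per group, and asked how the hepatocyte transcriptome differs between a short and a long exposure to this cytokine. All groups were primary hepatocytes, the liver cells that carry out most of its metabolism, isolated from male C57Bl/6J mice and plated on collagen. All were kept in Williams' E medium containing 5% fetal calf serum, the glucocorticoid dexamethasone at 50 nM and insulin at 1 nM. One group received no TNFα, another received recombinant murine TNFα at 2 ng/mL for 2 hours, and the remaining one received the same dose for 2 days. The time in culture of the untreated cells and the ages of the mice are not stated, nor is whether replicate arrays stand for different mice or different dishes. A p-value here is therefore set against array-to-array spread that could be purely technical.

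Many mRNAs of cytokines and chemokines carry AU-rich elements, short adenine- and uracil-rich stretches of the 3′ untranslated region, which mark them for rapid decay. Zfp36 (tristetraprolin) and its relatives Zfp36l1 and Zfp36l2 bind these elements through paired CCCH zinc fingers and recruit the CCR4-NOT deadenylase, which removes the poly(A) tail. Zc3h12a (Regnase-1) is an endoribonuclease that cuts stem-loops in the mRNAs of inflammatory genes. Elavl1 (HuR) binds U-rich and AU-rich sites and usually stabilises its targets, while Hnrnpd (AUF1) binds AU-rich elements and, depending on its isoform and target, promotes decay or stability. In many cell types Zfp36 and Zc3h12a are themselves induced by inflammatory signals and act in feedback.

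The promoters of Zfp36 and Zfp36l1, the members that changed on these arrays, are shown so that their upstream sequence can be set beside their time courses. The sequences are those of RefSeq on GRCm38.p6, cover the 250 bases before the start site, and read 5′ to 3′ on the minus strand that carries each gene. Capitals mark an Egr element (GCGNGGGCG) and a STAT element (TTCNNNGAA) in Zfp36, and an AP-1-like sequence (TGANTCA) and a TATA box (TATAAA) in Zfp36l1. The search allowed any middle base in the AP-1-like sequence, and the stretch in Zfp36l1 has T there (TGATTCA). Zfp36 lies at chr7:28379229-28379478 and Zfp36l1 at chr12:80113014-80113263.
Zfp36: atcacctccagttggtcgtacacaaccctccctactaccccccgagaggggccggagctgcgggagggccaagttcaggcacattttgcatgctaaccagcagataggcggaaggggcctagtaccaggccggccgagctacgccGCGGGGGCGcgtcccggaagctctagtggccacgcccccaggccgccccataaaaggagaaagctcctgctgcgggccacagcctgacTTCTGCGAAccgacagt
Zfp36l1: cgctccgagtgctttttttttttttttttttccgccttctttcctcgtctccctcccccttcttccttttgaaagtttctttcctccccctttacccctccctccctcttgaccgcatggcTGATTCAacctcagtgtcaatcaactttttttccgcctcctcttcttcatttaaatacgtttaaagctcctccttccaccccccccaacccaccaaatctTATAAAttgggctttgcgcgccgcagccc

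Both strands of the 250 bases were searched in the 5 members with a promoter in the RefSeq table; Zfp36l2 had no entry. The Egr element was found in 1 of the 5, against 4.7% of the 32851 promoters of the table. The STAT element was also found in 1 (7.02% of all promoters), as were the AP-1-like sequence with any middle base (6.75%) and the TATA box (12.4%). A GC box (GGGCGG) was found in 3, Zfp36, Zc3h12a and Hnrnpd, against 32.7% of all promoters, and in no case overlapped another motif. The NF-κB element (GGGA and TTCC with 2 bases between them), the cAMP response element (TGACGTCA) and a paired glucocorticoid receptor motif (ACANNNTGT) were found in 0 of the 5 (1.21%, 1.55% and 5.84% of all promoters). The GC content of the window was 64.8% for Zfp36 and 48.4% for Zfp36l1.

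Values are the deposited intensities, on a linear scale that still contains the background of the array. The median over all probes was between 143.16 and 143.22 on every array, the lowest intensity 96.54 and the highest 47615.3. A probe was tested if at least 2 arrays lay above that array's median, and 8 of the 11 probes were. Intensities of different probes were not compared with each other, because probes differ in how brightly they hybridise. Changes are log2 differences of group means from a limma fit to all 13438 genes tested, with the standard error (SE), the 95% confidence interval and a Benjamini-Hochberg adjusted p. A gene was called at an adjusted p under 0.05. Arrays of 1 group correlated at 0.995 to 0.996 over these genes and arrays of different groups at 0.982 to 0.991.

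**Figure D1:**
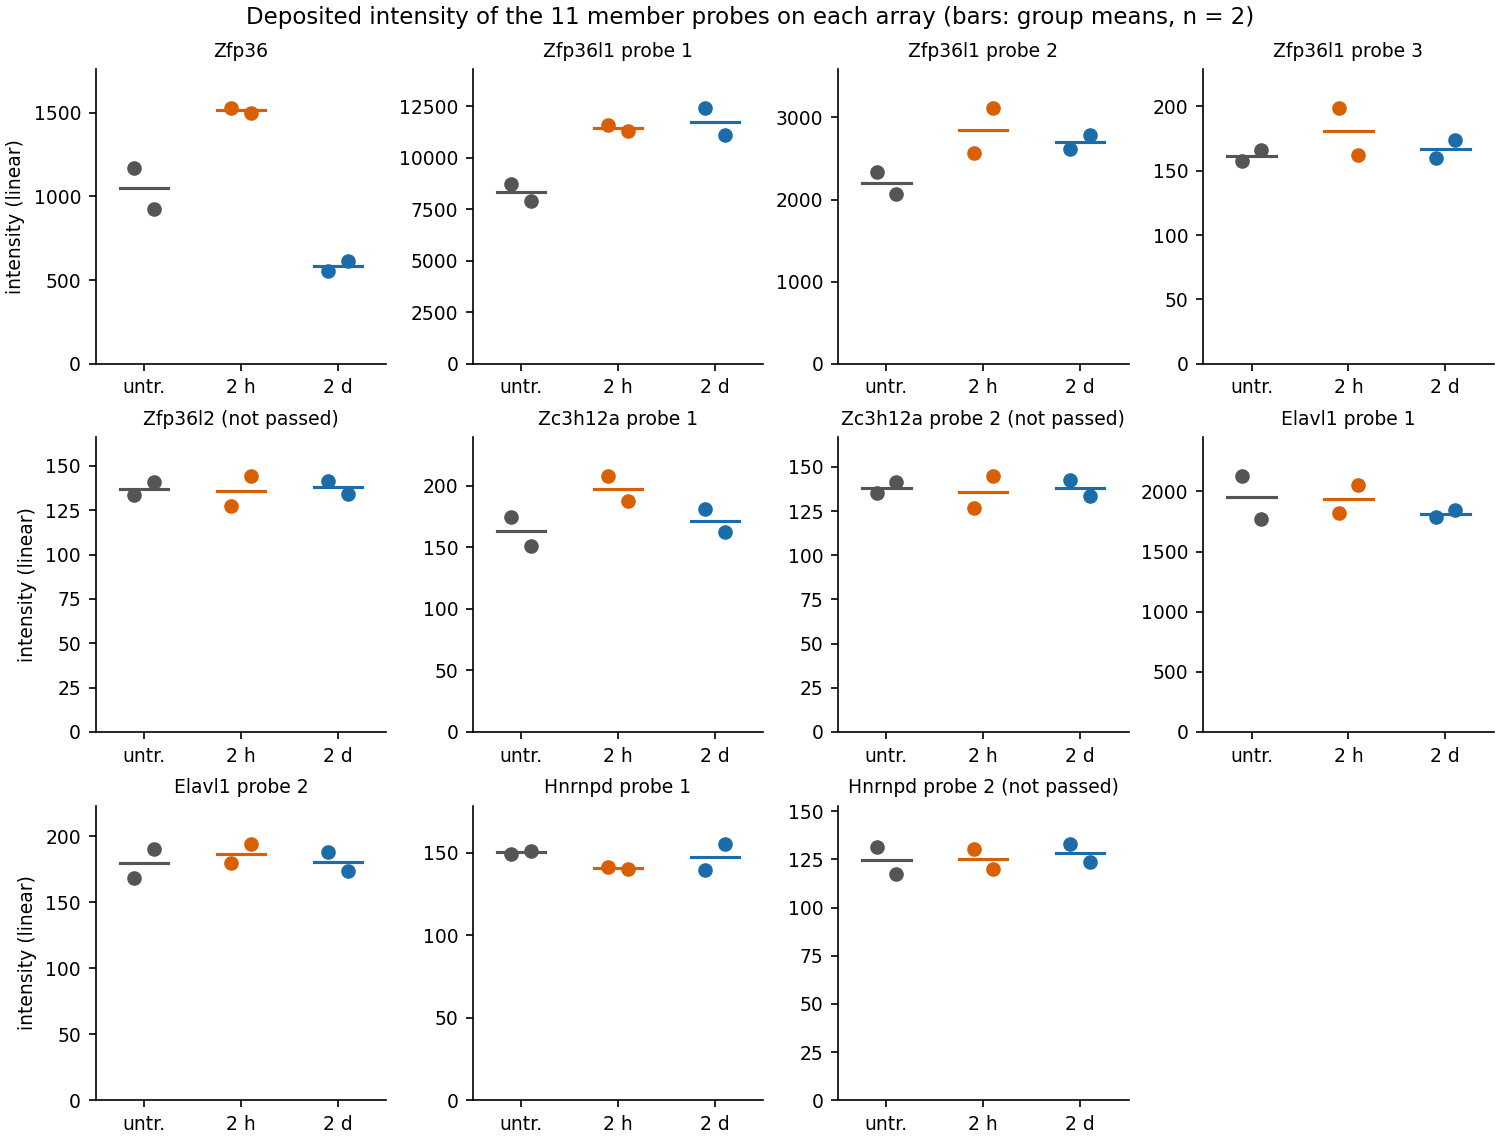
Deposited intensity (vertical axis, linear scale from 0) of each of the 11 member probes on the 2 untreated, 2 TNFα 2 h and 2 TNFα 2 d arrays; points are arrays, bars are group means, and probes of a gene are numbered by falling mean intensity. Zfp36 rises from 1049 to 1515 and then drops to 585.6, Zfp36l1 probe 1 rises from 8319 to 11442 and stays near it at 11758, and the other panels show no difference that passed the test.

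Zfp36 went up and then below its starting level. On its only probe (ILMN_3162407), the intensity was 1171 and 928 in the untreated arrays, 1531 and 1500 after 2 hours, and 555 and 616 after 2 days. No array of any group overlapped an array of another, and the 2 hour arrays were the highest and the 2 day arrays the lowest. The group means were 1049 ± 172, 1515 ± 21.9 and 585.6 ± 43.6 (SD, n = 2 each).

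At 2 hours Zfp36 was 1.45-fold above untreated cells (log2 0.54, SE 0.11, 95% interval 0.31 to 0.77, adjusted p = 0.00419 by limma), which ranked 133 among the 237 genes called higher. At 2 days it was at 0.561 of the untreated level (log2 -0.83, SE 0.11, interval -1.06 to -0.60, adjusted p = 4.79e-06), which ranked 132 among the 795 genes called lower. From 2 hours to 2 days it fell by 1.37 on the log2 scale (SE 0.11, interval -1.60 to -1.14, adjusted p = 1.1e-09), to 0.386 of the 2 hour level. That ranked 55 among the 896 genes called lower. The order of levels was therefore 2 days, untreated, 2 hours, and each neighbouring pair differed by the test.

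The rise at 2 hours was the least secure of these calls. Without untreated replicate 2 it was 0.37 (adjusted p = 0.16), without replicate 1 of the 2 hour group 0.53 (adjusted p = 0.0901) and without replicate 2 of that group 0.55 (adjusted p = 0.0755). After normexp background correction it was 0.58 with an adjusted p = 0.268. The fall at 2 days and the fall between the times kept their calls in all 21 alternatives, with the smallest changes at -0.67 and -1.30 and the largest adjusted p = 0.0232 and 0.00349 by limma.

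Zfp36l1 went up and stayed up. On its brightest probe (ILMN_2780424), the one used for the gene, the intensity was 8743 and 7896 in the untreated arrays, 11578 and 11307 at 2 hours, and 12432 and 11083 at 2 days. Both treated groups lay above both untreated arrays and overlapped each other. The means were 8319 ± 599, 11442 ± 192 and 11758 ± 954 (SD, n = 2 each).

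Against untreated cells Zfp36l1 rose 1.38-fold at 2 hours (log2 0.46, SE 0.10, interval 0.25 to 0.67, adjusted p = 0.00919 by limma) and 1.41-fold at 2 days (log2 0.50, SE 0.10, interval 0.29 to 0.71, adjusted p = 0.00114). Between the 2 times it differed by 0.04 (interval -0.18 to 0.25, adjusted p = 0.886). In order, the untreated level was lowest, and the 2 hour and 2 day levels above it did not differ beyond their spread.

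The other Zfp36l1 probes did not reach the threshold. Probe 2 read 2340 and 2063, then 2571 and 3119, then 2616 and 2784, with both treated groups again above the untreated arrays. In a fit of all 26272 passing probes its changes were 0.37 at 2 hours (adjusted p = 0.104) and 0.30 at 2 days (adjusted p = 0.0951). Probe 3 was dim, at 157 to 199 over the 6 arrays, and its groups overlapped, with changes of 0.15 and 0.04.

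The 2 hour call of Zfp36l1 was lost without untreated replicate 2 (0.39, adjusted p = 0.135), without replicate 1 (0.44, adjusted p = 0.131) or replicate 2 of the 2 hour group (0.48, adjusted p = 0.0952), and with the mean of its probes (0.33, adjusted p = 0.0596). That mean gave 0.28 at 2 days, which was still called (adjusted p = 0.0393). Normexp removed both calls, at 0.47 for 2 hours (adjusted p = 0.296) and 0.50 for 2 days (adjusted p = 0.101).

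Because the array holds both genes, their ratio could be followed within each array. Set to the untreated mean, the log2 ratio of Zfp36 to Zfp36l1 was 0.09 and -0.09 in the untreated arrays, 0.08 and 0.08 at 2 hours, and -1.49 and -1.17 at 2 days. The ratio was thus about level at 2 hours and 1.33 lower on the log2 scale at 2 days, where the arrays lay outside the untreated ones. With 2 arrays against 2, the exact two-sided permutation test cannot go below p = 0.333. That is the value it gave for 2 days against untreated cells, so it cannot decide whether the ratio differed.

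Zfp36l2 could not be followed. Its only probe read 133 and 141 in untreated cells, 127 and 144 at 2 hours, and 142 and 134 at 2 days. Only 1 of these 6 values was above the array median, so the probe was not tested. A level this close to the bulk of dim probes says nothing of whether the mRNA is present.

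Zc3h12a, the nuclease, was measured just above the array median. Its brighter probe read 175 and 151 in untreated cells, 208 and 187 at 2 hours, and 181 and 163 at 2 days. The 2 hour arrays lay above all others, and the 2 day arrays overlapped the untreated ones. The change at 2 hours was 0.28 (SE 0.11, interval 0.06 to 0.50), with an unadjusted p = 0.0147 and an adjusted p = 0.229 by limma, so it was not called. At 2 days the change was 0.08 (interval -0.14 to 0.30) and between the times -0.20 (interval -0.42 to 0.02). Probe 2, at 127 to 145 over the 6 arrays, did not pass. Background makes up much of such an intensity, so the size of a change depends on how it is treated. After normexp the 2 hour value was 0.59, with a larger SE of 0.21 and an adjusted p = 0.402 by limma, still without a call.

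Elavl1, the stabilising protein, was measured brightly and did not differ between the groups. Probe 1 read 2130 and 1772 in untreated cells, 1822 and 2050 at 2 hours, and 1784 and 1845 at 2 days, and all groups overlapped. The change was -0.01 at 2 hours (interval -0.23 to 0.22) and -0.10 at 2 days (interval -0.32 to 0.12), with adjusted p = 0.989 and 0.685 by limma. The bounds of both intervals were smaller in size than the changes called for Zfp36 and Zfp36l1. Probe 2, at 169 to 194, gave 0.06 and 0.01.

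Hnrnpd was near the array median on 1 probe and below it on the other. Probe 1 read 149 and 151 in untreated cells, 141 and 140 at 2 hours, and 139 and 155 at 2 days, and 3 of these 6 values were above the median. The 2 hour arrays were below the untreated ones and the 2 day arrays overlapped both, but the differences were -0.09 and -0.03 (adjusted p = 0.821 and 0.911 by limma). Probe 2, at 117 to 133, was below the median on all 6 arrays and did not pass. A probe for Alb, an mRNA that hepatocytes make in large amounts, also read only 145 to 174, so a dim probe on this array does not show a scarce transcript.

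**Figure D2:**
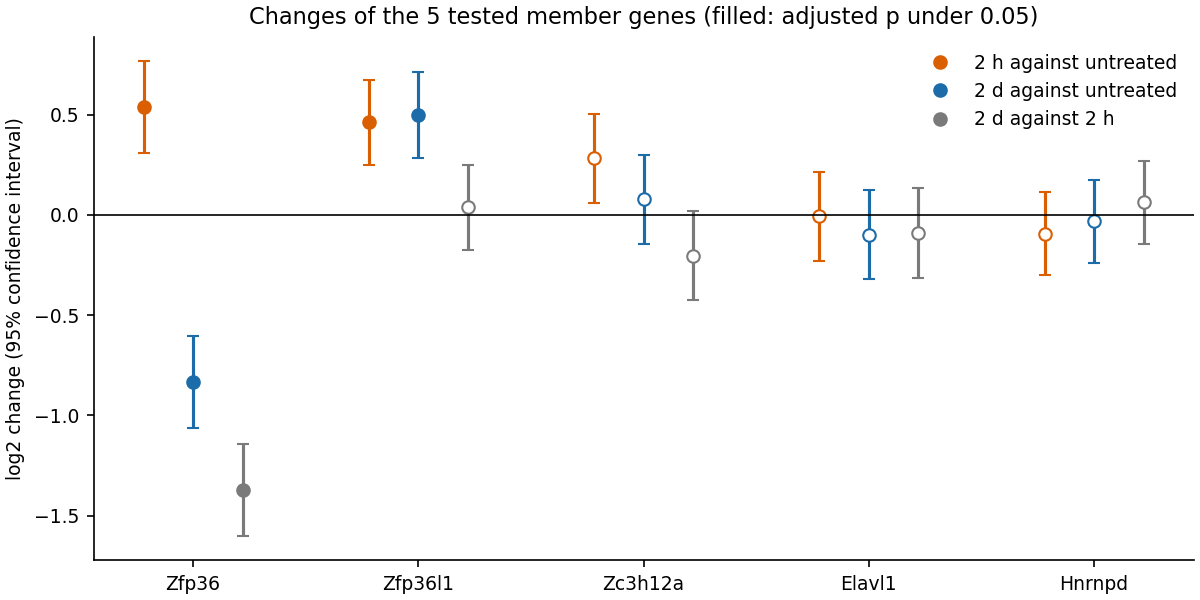
Log2 change of the 5 tested member genes (vertical axis) with 95% confidence intervals from limma, for 2 h against untreated (orange), 2 d against untreated (blue) and 2 d against 2 h (grey); filled points have an adjusted p under 0.05. Zfp36 changes sign, from 0.54 to -0.83, Zfp36l1 stays at 0.46 and 0.50, and the 3 other genes have open points in all comparisons.

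Counted over the 6 genes, 5 were tested. At 2 hours 2 were higher and 0 lower, where 1.76% of all genes tested were called higher, 1.06% lower and 2.82% in either direction. At 2 days 1 was higher and 1 lower, where 6.74% of all genes were higher, 5.92% lower and 12.7% called in all. Between the times 1 was lower and 0 higher, where 8.63% were higher, 6.67% lower and 15.3% called. Of the 8 passing probes 2, 2 and 1 were called, against 1.89%, 9.63% and 11.6% of all passing probes. Counting genes with no overlap between groups gave 4 of the 5 at 2 hours, 2 at 2 days and 2 between the times, against 40.4%, 49.6% and 52.8% of all genes. The median change of the 5 was 0.28 at 2 hours, -0.03 at 2 days and -0.09 between the times, and over all genes it was -0.01, 0.01 and 0.01. Without replicate 1 or 2 of the 2 hour group, or without untreated replicate 2, 0 members were called at 2 hours. With untreated cells shared by both comparisons against them, the 2 sets of values are not independent.

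Cell composition was checked because the arrays measured whole cultures, in which fewer cells of a type and less RNA per cell cannot be told apart. Over all genes tested, 1.76% were called higher and 1.06% lower at 2 hours, and 6.74% and 5.92% at 2 days. Of 12 tested hepatocyte markers, 0 were called at 2 hours by limma (4 at an unadjusted p under 0.05), and 6 were lower at 2 days. Their summed intensity was 124522 to 134482 in untreated cells, 130265 to 135177 at 2 hours and 81295 to 84072 at 2 days. The 6 were Cps1 (-3.10), Cyp3a11 (-2.97), Asgr1 (-1.60), Apoa1 (-0.82), Hnf4a (-0.82) and Cyp2e1 (-0.66). Of the defining markers, Apoa1 and Ttr were among the brightest probes, and Tat did not pass. Of 12 macrophage markers, 5 were higher at 2 days, and the sum of the 12 was 2019 to 2080, then 1982 to 2014, then 2346 to 2526. The 5 were C1qb (0.75), Fcer1g (0.56), C1qc (0.42), C1qa (0.36) and Cd163 (0.31). The calls of C1qc, C1qa and Cd163 were lost without at least 1 array. Of other Kupffer cell markers, Clec4f and Cd5l did not pass. Vsig4 (191 to 263), Marco (145 to 197) and Timd4 (138 to 168) did, without a call against untreated cells. Vsig4 was called higher at 2 days than at 2 hours (0.31), a call also lost without at least 1 array. Of 6 bile duct markers 1 was higher at 2 hours and 3 at 2 days, with a sum of 5073 to 5546, 5357 to 6097 and 10197 to 11717. Cldn4 was the brightest of them (3056 to 7712). Sox9 had the largest log2 change at 2 days (1.78), against 0.95 for Cldn4 and 0.52 for Krt23. The call of Krt23 was lost without at least 1 array. Krt19 (198 to 242), Krt7 (140 to 161) and Prom1 (145 to 157) were tested without a call, and Epcam did not pass. Of 8 stellate cell markers 1 was higher at 2 hours, and 2 were higher and 1 lower at 2 days (sum 2943 to 3394, 3043 to 3260 and 3850 to 4523), and of 11 endothelial markers 1 was higher and 1 lower at 2 days (2137 to 2300, 2234 to 2435 and 2244 to 2245). Of 5 lymphocyte and neutrophil markers 0 were called by limma at either time, with 0 at an unadjusted p under 0.05. The part of these shifts in the 2 day values of Zfp36 and Zfp36l1 was not tested. At 2 days, exposure to TNFα and time in culture cannot be told apart either. Because the time in culture of the untreated cells is not stated, the same limit holds at 2 hours.

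The members act through a larger decay pathway, and its other genes were read from the same fit. Among proteins that bind mRNA and set its stability, 25 of the 32 listed were tested. At 2 hours 1 was higher, Tial1, a relative of the translational silencer Tia1 (0.40, but -0.03 on its other probe), and the median was 0.02, against 1.76% of all genes called higher. At 2 days 3 were higher, against 6.74% of all genes called higher: Khsrp, which binds AU-rich elements and promotes decay (0.37), Zc3h12d, a relative of Zc3h12a (0.33), and Tia1 (0.32). By limma 0 were lower at either time, and 2 and 6 of the 25 had an unadjusted p under 0.05 in either direction. Each of these 4 calls was lost without at least 1 array. The other probes of Khsrp (0.06) and Tia1 (0.06 to 0.20) were not called.

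Deadenylation genes held the strongest changes of the decay machinery. Noct (nocturnin), a circadian protein first described as a deadenylase, read 1408 and 1290 in untreated cells, 3414 and 3388 at 2 hours, and 1508 and 1361 at 2 days. The 2 hour arrays were more than double the others, which overlapped. The rise was 2.52-fold (log2 1.34, SE 0.10, adjusted p = 7.78e-10 by limma), the 2 day change 0.09, and its other probe gave 1.09 at 2 hours.

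Btg1, an antiproliferative protein that binds the CCR4-NOT deadenylase, read 3158 and 2859, then 5923 and 6090, then 5458 and 4772. It was high at both times, at 1.00 and 0.76, and its other probe was called at both, at 0.89 and 0.95. Tob1, of the same protein family, moved the other way at both times (-0.52 and -0.42), and each of its calls was lost without at least 1 array. In all, 2 of 18 tested deadenylation genes were higher and 1 lower at 2 hours, against 2.82% of all genes called. At 2 days 3 were higher and 2 lower, against 12.7% of all genes, with the CCR4-NOT subunit Cnot2 (0.37), the nuclear poly(A)-binding protein Pabpn1 (0.37) and Tob2 (-0.35) besides Btg1 and Tob1. The calls of these 3 were each lost without at least 1 array. Those of Cnot2 and Tob2 were also lost with the mean of each gene's probes, and over the alternatives their weakest changes were 0.17 and -0.17.

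The shares called among decapping and exosome genes were close to, or below, the 2.82% and 12.7% of all genes at 2 hours and 2 days. Of 18 decapping and 5′ decay genes, 0 were called at 2 hours by limma (2 at an unadjusted p under 0.05). At 2 days 1 was higher, the decapping scaffold Edc4 (0.34), and 1 lower, Lsm14a, a component of processing bodies (-0.30). Both calls were lost without at least 1 array, and that of Edc4 also with the mean of its probes. Of 16 exosome and 3′ decay genes, 0 were called by limma at 2 hours or at 2 days, with 2 and 0 at an unadjusted p under 0.05. The medians of the decapping list were -0.06 and 0.13, and those of the exosome list -0.02 and -0.02.

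Of 22 tested genes that act on the members themselves, 2 were higher and 1 lower at each time, where 2.82% of all genes were called at 2 hours and 12.7% at 2 days. Ikbke, a kinase related to those that activate NF-κB, read 200 and 177 in untreated cells, 583 and 671 at 2 hours, and 466 and 410 at 2 days, and the groups did not overlap. Its changes were 1.73 at 2 hours and 1.22 at 2 days (adjusted p = 1.67e-11 and 5.82e-09 by limma), and 2.47 and 1.84 after normexp.

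Dusp1, the phosphatase that switches off the p38 kinases, was lower at both times. The p38 pathway phosphorylates Zfp36 and thereby restrains its activity. Dusp1 read 8856 and 8711, then 5822 and 5868, then 6536 and 6414, so that all treated arrays lay below the untreated ones (-0.59 and -0.44, adjusted p = 3.38e-04 and 0.00244 by limma). After normexp the changes were about as large (-0.60 and -0.45) but were not called. Mapkapk3, a kinase downstream of p38, was called higher at 2 hours (0.38) and the p38 kinase Mapk11 at 2 days (0.35). Both calls were lost without at least 1 array and with the mean of each gene's probes, and the other probe of Mapk11 gave -0.09.

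**Figure D3:**
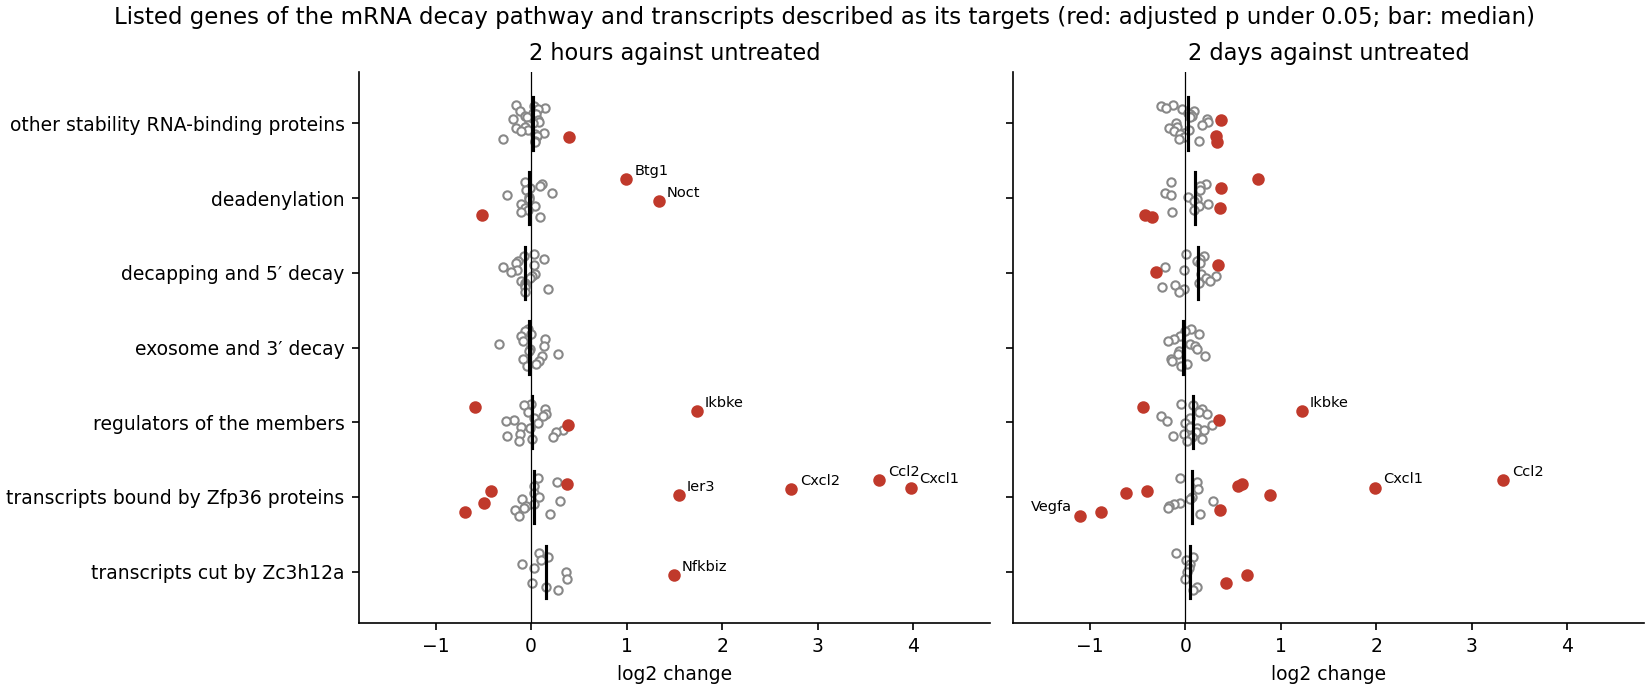
Log2 change (horizontal axis) of each tested gene in 7 lists of decay factors, regulators of the members and transcripts described as their targets, at 2 hours (left) and 2 days (right) against untreated cells; red points have an adjusted p under 0.05, open points do not, and bars are list medians. Noct and Btg1 stand out among the decay factors at 2 hours, the chemokines Cxcl1, Cxcl2 and Ccl2 reach 2.73 to 3.98, and list medians lie between -0.06 and 0.15.

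Transcripts described in other systems as bound by Zfp36 proteins moved in both directions, and their values are given beside those of Zfp36 without a test of a link. Of 26 listed, 21 were tested, and the probes of Tnf, Csf2, Il1b and Il10 did not pass. At 2 hours 5 were higher and 3 lower, against 1.76% and 1.06% of all genes. At 2 days 6 were higher and 4 lower, against 6.74% and 5.92%. The medians were 0.04 and 0.07. Counted among the higher, Cxcl2 at 2 hours and Ccl4 at both times passed the filter only through treated arrays.

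Of the 5 tested chemokines of this list, 4 were called higher at 2 hours and Ccl3 was not, and the 4 differed in size and in their 2 day values. Cxcl1, which attracts neutrophils, read 574 and 514 in untreated cells, 8544 and 8613 at 2 hours, and 2054 and 2255 at 2 days, with no overlap between groups (3.98 and 1.99). Cxcl2, a related chemokine, read 115 and 115, then 653 and 886, then 129 and 124, so it was below the array median on all untreated and 2 day arrays and passed only through the 2 hour arrays. Its 2 hour change was 2.73, and 4.82 after normexp, so its size depends on the background, and no change was called at 2 days. Ccl2, which attracts monocytes, read 261 and 198, then 2658 and 3059, then 2401 and 2186, and stayed high (3.65 and 3.33). Ccl4, a related chemokine named outside the rule after its values were seen, read 125 and 134, then 163 and 173, then 189 and 202 (0.38 and 0.59), and its other probe gave 0.05 and 0.09. Both untreated values of Ccl4 were below the array median, so it passed only through the treated arrays. Its 2 hour call was lost without at least 1 array and after normexp. Between the times Cxcl1 fell by 1.99 on the log2 scale and Cxcl2 fell to below the array median (-2.59, and -4.26 after normexp), while Ccl2 changed by -0.32 (adjusted p = 0.0755 by limma), the interval over which Zfp36 fell by 1.37.

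Ier3, an early response gene, read 1820 and 2105 in untreated cells, 5661 and 5772 at 2 hours, and 3543 and 3715 at 2 days, high at both times (1.55 and 0.89). Plk3, a stress-responsive kinase, fell by 0.69 and 0.88 at the 2 times, and Vegfa, the endothelial growth factor, by 1.10 at 2 days, where its arrays read 710 and 581 against 1350 and 1398 in untreated cells. Fos, an AP-1 subunit, fell by 0.62 at 2 days, and the anti-apoptotic gene Mcl1 and the bile acid enzyme Cyp7a1 fell by 0.50 and 0.42 at 2 hours. The 2 hour calls of Mcl1 and Cyp7a1 were lost without at least 1 array, and that of Cyp7a1 also with the mean of its probes. After normexp the changes of Plk3 at 2 hours (-0.77) and of Fos at 2 days (-1.08) were no smaller but were not called, and Cyp7a1 was at -1.16 without a call.

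Of 12 transcripts described as cut by Zc3h12a, itself among them, 11 were tested. Nfkbiz was the 1 higher at 2 hours; it is an NF-κB cofactor and read 348 and 266 in untreated cells, 811 and 906 at 2 hours, and 508 and 444 at 2 days (1.49 and 0.64). After normexp the 2 day change was 0.86, without a call. At 2 days it was joined by the transferrin receptor Tfrc (0.43), whose call was lost without at least 1 array (1.76% and 6.74% of all genes were called higher at the 2 times), and 0 were lower at either time by limma. Lcn2, named here after its values were seen, read 43932 to 47015 on all arrays, near the highest intensity of the table, where a difference may be compressed.

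The genes whose pattern over the 6 arrays was most like that of Zfp36 were sought among 2545 called genes, by the root mean square (RMS) difference of log2 values centred on each gene's mean. The 5 nearest were Dgat2, an enzyme of triglyceride synthesis (RMS difference 0.118, Pearson r 0.991), the insulin-regulated binding protein gene Igfbp1 (0.119, r 0.981), the sterol transporter Abcg5 (0.122, r 0.987), Reln (reelin), which was also on the stellate cell list (0.127, r 0.978), and the homeodomain gene Hopx (0.141, r 0.971). All 5 were high at 2 hours (0.43 to 0.73) and below untreated cells at 2 days (-0.82 to -0.55). The 2 hour call of Reln was lost without at least 1 array, after normexp and with the mean of its probes. Its 2 day call was kept in all 21 alternatives, with a change of -0.34 at its weakest. Nearest to Zfp36l1 were Il13ra1, a subunit of the interleukin 13 receptor (0.0656, r 0.964), the phosphatase Ptpn14 (0.0794, r 0.942), the ectonucleotidase Entpd2 (0.0837, r 0.968), the adaptor Bcar1 (0.0924, r 0.935) and Fam102a (0.0926, r 0.925). These are descriptions over 6 arrays in 3 groups, for genes picked for their likeness, with no test.

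**Figure D4:**
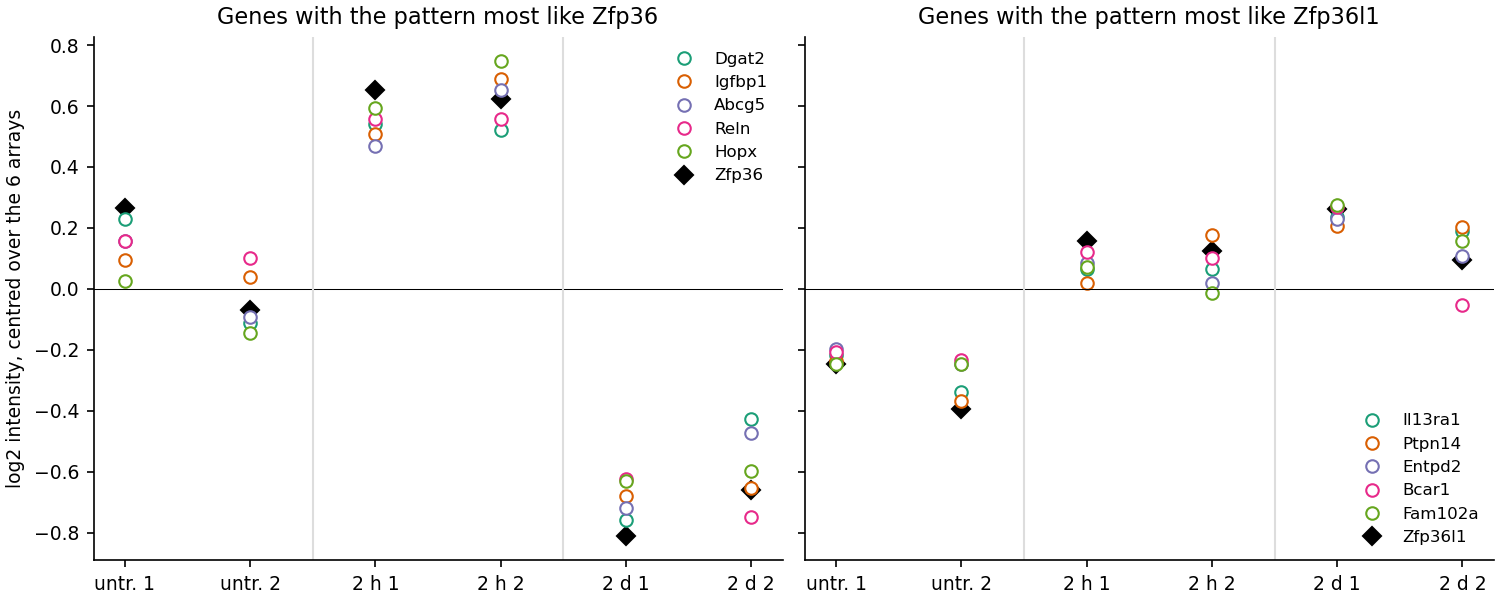
Log2 intensity centred over the 6 arrays (vertical axis) for Zfp36 (left) and Zfp36l1 (right), black diamonds, and the 5 called genes with the most similar pattern, open circles, on each array. The 5 genes beside Zfp36 change by 0.43 to 0.73 at 2 hours and by -0.82 to -0.55 at 2 days, and those beside Zfp36l1 by 0.27 to 0.40 and 0.33 to 0.51.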

How the data were processed

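Biotin-labelled cRNA of 6 samples was hybridised to Illumina arrays, per the labels' protocols. Values were taken as deposited, a linear intensity for each probe on each of 6 arrays, and the arrays share nearly 1 distribution; the scanning and normalization by the authors are not stated. Names came from the platform annotation (34885 with 1 symbol, 18 with several, 10378 without), and symbols were updated through entrez identifiers with the RefSeq table of GRCm38.p6. Intensities were converted to log2. Probes above the array's 50th percentile on at least 2 arrays were kept (26272), each gene was represented by its passing probe with the highest mean (13438 genes), and limma 3.58.1 in R 4.3.3 was fitted with a mean per group to all 6 arrays (3 residual and 21.22 prior degrees of freedom, so the spread is mostly that shared over genes). The members, the gene lists and the tests were chosen with earlier results of these data known. Named genes are the members, up to 3 called genes per list, comparison and direction with the largest change, and the 5 genes most like each called member. The fit was run on simulated data with independent normal noise at the fitted variances, which checks the code and not the assumptions for these arrays. The alternatives were other scalings, filters, probe rules, variance models, thresholds, a replicate block, normexp background correction with an offset of 16, and leaving out each array. The number of arrays limits the precision.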

Additional observations from a re-analysis of the deposited data

Results flagged for a closer look

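Of 50 named genes, 33 differed between the 2 hour and the 2 day arrays by the limma contrast of the times (adjusted p under 0.05), 11 higher and 22 lower at 2 days; the log2 change from 2 hours to 2 days is given for each. The named genes were chosen partly on this contrast, so their count follows from the choice and is not a result. Among the members this was Zfp36 (-1.37). Among the mRNA-binding proteins it was Tial1 (-0.41), Khsrp (0.30), Celf2 (-0.35) and Igf2bp3 (0.42), and among deadenylation genes Noct (-1.25), Cnot2 (0.38), Tob2 (-0.45), Pabpn1 (0.43) and Cnot4 (-0.43). In the decapping and exosome lists it was Ddx6 (0.31), Exosc4 (0.39) and Exosc8 (-0.36), and among the regulators Ikbke (-0.52), Mapk11 (0.53) and Map2k3 (-0.37). Among transcripts described as bound by Zfp36 proteins it was Cxcl1 (-1.99), Cxcl2 (-2.59), Mcl1 (0.44), Ier3 (-0.66), Fos (-0.65), Vegfa (-0.97), Plk2 (0.54) and Ccnd1 (0.51), and among those described as cut by Zc3h12a Nfkbiz (-0.85), Tfrc (0.42), Rel (-0.37) and Nfkbid (-0.34). The genes picked for their likeness to Zfp36 were Dgat2 (-1.12), Igfbp1 (-1.26), Abcg5 (-1.16), Reln (-1.25) and Hopx (-1.28). Some of these calls rest on the choice of probe. Averaged over their probes, Khsrp, Igf2bp3, Cnot2, Cnot4, Tob2, Ddx6 and Mapk11 were no longer called between the times. The direction for Ddx6 was not secure either. Its other probes gave -0.33 to -0.08, and over the alternatives its change went down to -0.06. Calls lost after normexp or without an array are counted in the next section.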

How the results depend on the processing

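Zfp36 and Zfp36l1 kept the direction of their called changes in all 21 alternatives. Normexp reduced the genes called from 379 to 95 at 2 hours, from 1701 to 655 at 2 days and from 2056 to 810 between the times, and left 0 members at 2 hours and 1 at 2 days, both for genes and for probes; it gave Zfp36 0.58 and Zfp36l1 0.47 at 2 hours and Zfp36l1 0.50 at 2 days, without a call. At 2 hours 85.3% of the normexp calls were higher, against 237 of 379. Averaging the probes of each gene left 250 genes called at 2 hours, with 1 member, and Zfp36l1 was at 0.33 without a call. At an adjusted p under 0.01, 229, 1075 and 1330 genes were called in the 3 comparisons, and 1 member probe at 2 hours. Leaving out 1 array gave 187 to 384 genes at 2 hours, 0 to 2 member genes and 0 to 2 member probes, 1150 to 1536 genes at 2 days and 1270 to 2155 between the times; Zfp36 then lay at 0.37 to 0.71 and Zfp36l1 at 0.39 to 0.54 at 2 hours. Of the 14, 21 and 25 calls of named pathway and target genes (members left out) at 2 hours, at 2 days and between the times, 7, 12 and 17 were lost after normexp, and 5, 11 and 16 without at least 1 array. The cause was not tested. Differences between replicates 1 and 2 correlated little from group to group (-0.15, -0.08 and 0.04), which cannot settle whether the arrays were made as pairs. With a replicate block 363, 1638 and 2007 genes were called and Zfp36 at 2 hours had an adjusted p = 0.00388, with no member call changed. With the untreated numbers crossed, an alternative chosen after seeing the data, 523 genes, 2 member genes and 3 member probes were called at 2 hours. Probes near the array median, as for Zfp36l2, Zc3h12a and Hnrnpd, limit what can be seen.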
